A study of Mus musculus with 12 samples.

Results

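The genes described here are 10 members of the bone morphogenetic protein (BMP) pathway, chosen by gene name from the 25759 genes listed for every library: the ligand Bmp4, the receptor Bmpr1a, the signal transducers Smad1 and Smad5, the inhibitory SMADs Smad6 and Smad7, and the target genes Id1, Id2, Id3 and Id4. Polyadenylated RNA was sequenced from HATX3 mouse embryonic stem cells (ESCs), a diploid line of haploid origin in which doxycycline turns on Xist, the RNA that silences the X chromosome. The 12 libraries form 4 groups of 3. Wild-type ESCs, numbered 1, 2 and 3, and the ΔCdk8 clones 8, 11 and 15, in which CRISPR/Cas9 removed a short stretch with the start codon of Cdk8, a kinase of the mediator complex, were each sampled in uninduced conditions and after 48 h of Xist expression. All 12 libraries carry the doxycycline-inducible Xist system. Each ΔCdk8 clone is a single clone, whereas the parental wild-type ESCs are polyclonal. The sources used here do not say whether the 3 wild-type numbers are separate cultures, so p-values measure the spread between these samples, which may be technical.

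BMP ligands bind pairs of type I and type II receptor kinases at the cell surface, and the type I receptor phosphorylates Smad1 and Smad5. The phosphorylated SMADs enter the nucleus with Smad4 and switch on target genes, among them the Id genes and the inhibitory SMADs Smad6 and Smad7, which dampen the pathway in turn. Id proteins lack a DNA-binding domain and sequester E proteins, and BMP4 in serum is known for supporting ESC self-renewal through them together with leukaemia inhibitory factor.

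Levels are given as TPM, the exon reads of a gene per exon length, scaled to the same total in every library. Between 22170087 and 60798578 reads per library lay on genes. Cdk8 itself was listed at 64.2 to 74.2 TPM in uninduced wild-type ESCs and at 34.4, 56.8 and 85.3 TPM in clones 8, 11 and 15, which is no check of the deletion, since reads from the rest of the gene still count. All 8 pluripotency markers had a mean of at least 1 TPM in every group, with a summed level of 3974 to 7544 TPM over the 12 libraries. Within that list Nanog, singled out after its values were seen, was at 50.2 to 153 TPM in the 4 libraries of wild-type numbers 2 and 3, 157 to 210 TPM in number 1 and 192 to 407 TPM in the clones. The other pluripotency markers did not follow to that extent. Over both conditions the clone mean was 3.06 times that of numbers 2 and 3 for Nanog. For Pou5f1 it was 0.906 times, and for the rest of the list 1.08 to 1.36 times. Sums of other marker lists split the libraries in 2 ways. The 6 wild-type and 6 ΔCdk8 libraries did not overlap for 4 primed epiblast markers, at 370 to 1136 TPM against 279 to 352 TPM, nor for 6 mesoderm and primitive streak markers, at 1.82 to 5.66 TPM against 5.77 to 15 TPM, as for Bmpr1a, Smad6 and Smad7. Within the mesoderm list only Eomes had a group mean of at least 1 TPM, at 0.775 to 3.64 TPM against 3.84 to 14.1 TPM. In both conditions T and Kdr had lower means in ΔCdk8 than in wild-type libraries, and Mixl1, Mesp1 and Evx1 higher ones. The 4 libraries of wild-type numbers 2 and 3 stood apart from the other 8, as for Id3 and Bmp4, in 6 trophoblast markers (14.2 to 53.7 against 63.5 to 538 TPM), 6 fibroblast markers (5.99 to 18.1 against 22.6 to 84.8 TPM) and 4 neural markers (2.77 to 3.98 against 0.472 to 1.56 TPM). The fibroblast sum was mostly Thy1 and Acta2, and Acta2 ran from 0.369 to 64.3 TPM within the clones. Col1a1, Col1a2 and Postn stayed at or below 3.67 TPM in every library. Col3a1 was at most 0.156 TPM, with a clone mean 0.771 times that of numbers 2 and 3. Of the neural markers, Neurog2 was listed at 0 in induced wild-type and all ΔCdk8 libraries and Pax3 in all wild-type libraries. The 7 primitive endoderm markers summed to 5.67 to 11.8 TPM. In bulk RNA, fewer cells of a type and less RNA per cell cannot be told apart, and the part of these markers in the results below was not tested.

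Wild-type number 1 stood apart from numbers 2 and 3. In both of its libraries 5 of the 10 genes lay outside the range of the other 4 wild-type libraries, namely Id1, Id2 and Id3 below it and Bmp4 and Smad7 above it. The same was true of 37.3% of 15137 genes. Wild-type number 1 also had 158 TPM of trophoblast markers in uninduced conditions, against 31.1 and 53.7 TPM in numbers 2 and 3, and 596 TPM of primed epiblast markers, against 957 and 1136 TPM. Genotype differences are therefore given with and without it where it decides them. Number 1 was singled out for its own values, those of these 5 genes among them. Fits without it rest on numbers 2 and 3 as the wild type. Their p-values for these genes depend on that choice and are no independent support.

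The sequences before the starts of Smad6 and Bmp4 are shown because these were the members with the largest ratios of ΔCdk8 to wild-type mean TPM in uninduced conditions, 3.53 and 3.28. RefSeq promoter windows of 300 bases, 250 before and 50 after a transcript start on GRCm38.p6, were given for 8 of the 10 genes and searched on both strands. Smad6 is read from the minus strand at chr9:64022056-64022309, where the last 4 bases belong to the transcript. Capitals mark GTCTAGAC, the palindromic SMAD-binding element, which spans the start and overlaps none of the other motifs searched. It was searched for after the sequences had been seen, and 70 of 32817 RefSeq windows of this length hold it, a share of 0.213%.
Smad6: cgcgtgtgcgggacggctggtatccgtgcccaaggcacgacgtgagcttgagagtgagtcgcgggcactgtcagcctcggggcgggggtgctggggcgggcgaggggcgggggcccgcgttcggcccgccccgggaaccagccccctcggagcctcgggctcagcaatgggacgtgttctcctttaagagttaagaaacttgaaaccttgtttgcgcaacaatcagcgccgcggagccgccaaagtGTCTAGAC
Bmp4 is read from the minus strand at chr14:46390670-46390919, and capitals mark its 3 E-boxes, the CANNTG letters that E proteins bind. An E-box is common, with 72.3% of all windows holding one.
Bmp4: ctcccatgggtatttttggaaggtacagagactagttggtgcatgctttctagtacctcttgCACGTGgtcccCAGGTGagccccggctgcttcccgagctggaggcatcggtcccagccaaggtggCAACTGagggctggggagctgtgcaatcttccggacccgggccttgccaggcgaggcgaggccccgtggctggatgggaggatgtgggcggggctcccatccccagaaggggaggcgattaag
The GC-rich SMAD site GGCGCC, held by 11.9% of all windows, was found in the windows of Bmpr1a, Id2, Id4 and in those of 2 of the 3 Smad5 starts, and not in those of Smad6, Bmp4, Id3 or Smad1. CAGAC, a single SMAD-binding element held by 49.6% of all windows, occurred 2 times in the Id3 window and 1 time at the other Smad5 start. These matches describe letters in a window and are not binding data.

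**Figure D1:**
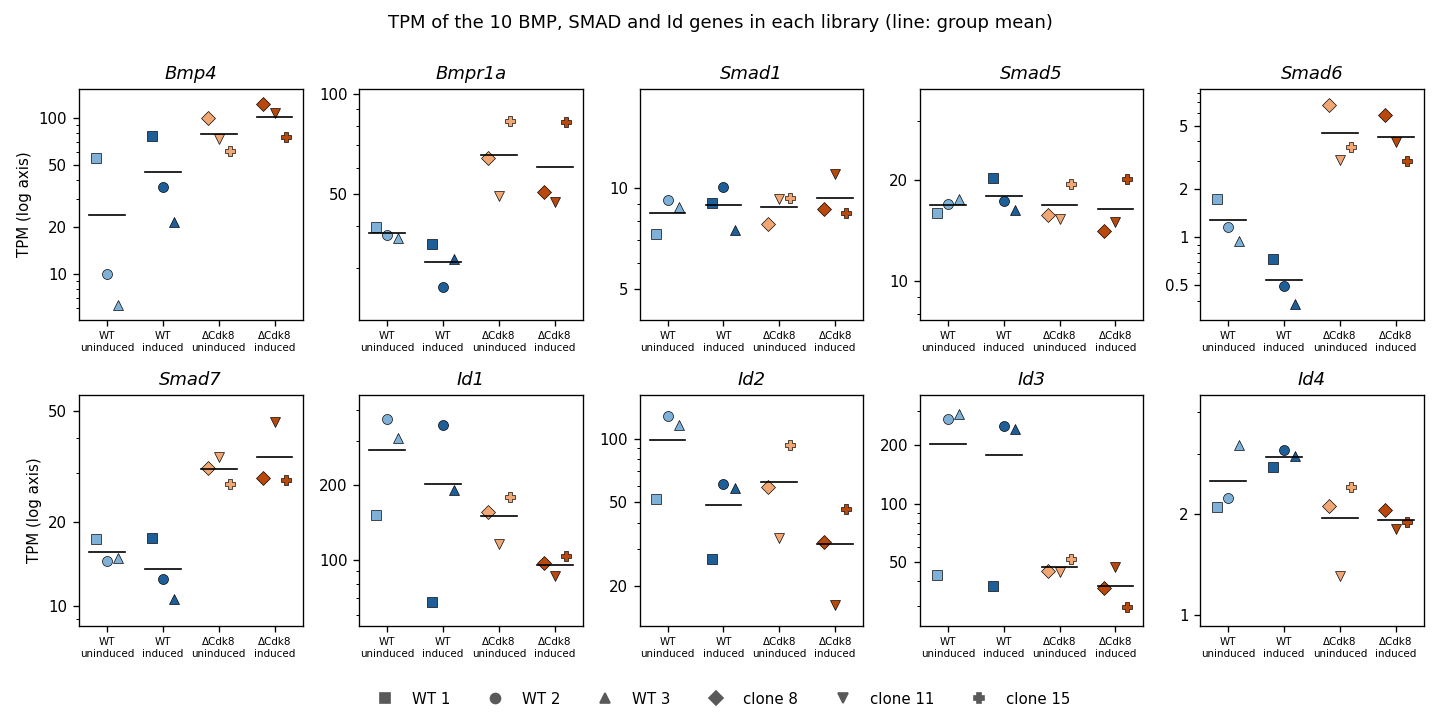
TPM on a log axis for each of the 10 genes in the 12 libraries, grouped by genotype and induction, with the symbol giving the wild-type number or clone and a line at each group mean. Smad6, Smad7 and Bmpr1a are higher in every ΔCdk8 library than in every wild-type library, whereas for Id3 and Bmp4 the squares of wild-type number 1 sit at or near the ΔCdk8 symbols.

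The ligand gene Bmp4 (ENSMUSG00000021835, minus strand, chr14:46383520-46390669 on GRCm38) had an SD above its mean in uninduced wild-type ESCs, 23.8±27.3 TPM (mean±SD, n = 3). In uninduced conditions it was at 55.2, 9.94 and 6.33 TPM in wild-type numbers 1, 2 and 3, and at 99.9, 73.5 and 61.1 TPM in clones 8, 11 and 15. After induction the wild-type values were 76.9, 36.2 and 21.5 TPM and those of the clones 122, 107 and 75.3 TPM. Uninduced groups did not overlap, although wild-type number 1 was just below clone 15, and induced groups overlapped by wild-type number 1 against clone 15. The genotype difference was 1.57±0.75 (log2 fold change±SE, 3 against 3) in uninduced and 1.04±0.44 in induced conditions, with adjusted p 0.276 and 0.183 by the edgeR quasi-likelihood test with Benjamini-Hochberg adjustment over all genes. It rested on wild-type numbers 2 and 3. Without the uninduced library of number 1 the difference was 3.09±0.34 with adjusted p 0.0325, and without the induced one it was 1.63±0.36 with adjusted p 0.054.

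A gene was called when its fold change was above 2 and its adjusted p under 0.01, the threshold of the study. By edgeR 0 of 14646 genes (0%) passed in the uninduced and 0 of 14143 (0%) in the induced genotype comparison, and 0 of the 10 genes in either. At an unadjusted p under 0.05 stood 20.4% and 25.9% of all genes, and 5 (Id1, Id3, Bmpr1a, Smad6 and Smad7) and 7 (the same with Id4 and Bmp4) of the 10. TPM did not overlap between genotypes for 4 of the 10 in uninduced conditions (Bmp4, Bmpr1a, Smad6 and Smad7), beside 23.1% of all genes, and for 4 in induced conditions (Id4, Bmpr1a, Smad6 and Smad7), beside 28.7%. DESeq2 called 386 of 14323 genes (2.69%) and 822 of 13849 (5.94%). Among them were Id3 and Smad6 in uninduced conditions, and Id3, Smad6 and Smad7 in induced conditions.

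The type I receptor Bmpr1a (ENSMUSG00000021796, minus strand, chr14:34410734-34503341) was expressed at 39.7, 37.6 and 36.7 TPM in uninduced wild-type numbers 1, 2 and 3 and at 64.1, 49.3 and 82.7 TPM in clones 8, 11 and 15. After induction it was at 35.3, 26.1 and 31.9 TPM in wild-type ESCs and at 50.6, 47.3 and 82.6 TPM in the clones. All 6 ΔCdk8 libraries lay above all 6 wild-type libraries, as was also seen for Smad6 and Smad7. These 3 of the 10 genes stand beside 6.33% of 15137 genes with that pattern. The log2 difference of Bmpr1a was 0.61±0.16 uninduced and 0.77±0.20 induced, with edgeR adjusted p 0.148 and 0.0829.

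Bmpr1a and Bmp4 both lie on chromosome 14, and expression of this chromosome as a whole was higher in the clones. Each gene's TPM was divided by its mean in uninduced wild-type libraries, and the median of 424 chromosome 14 genes was then taken relative to that of all autosomal genes. It was 1.38 to 1.5 in the uninduced and 1.38 to 1.49 in the induced clones, against 0.949 to 1.01 in the 6 wild-type libraries. DNA copy number was not measured here. Before division by the autosomal median, the chromosome 14 median was 1.51, 1.46 and 1.72 in uninduced clones 8, 11 and 15. Divided by this median of the same library, Bmpr1a was at 1.12, 0.891 and 1.26 times its uninduced wild-type mean in those clones. In induced libraries it was at 0.918, 0.852 and 1.29 times that mean in clones 8, 11 and 15 and at 0.917, 0.73 and 0.905 times in wild-type numbers 1, 2 and 3. The ratios of the clones lie on both sides of 1. For Bmp4 the same division left 2.77, 2.12 and 1.49 in the uninduced clones, whereas uninduced wild-type number 1 stood at 2.31 and numbers 2 and 3 at 0.42 and 0.268. The higher Bmpr1a level cannot be told apart from the shift of its chromosome. The chromosomes of Smad6 and Smad7, 9 and 18, had relative medians of 1.01 to 1.05 and 0.956 to 1.09 in the clones.

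**Figure D2:**
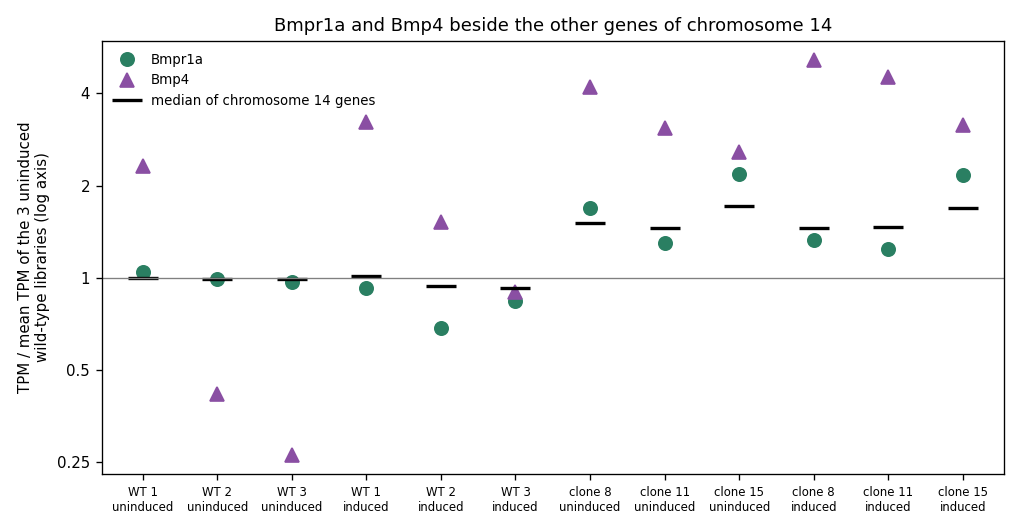
TPM of Bmpr1a (circles) and Bmp4 (triangles) in each library divided by the mean of the 3 uninduced wild-type libraries, on a log axis, with a bar at the median of the same ratio over chromosome 14 genes. The bars of the 6 ΔCdk8 libraries lie above 1.4 and Bmpr1a lies at 0.852 to 1.29 times them, while Bmp4 lies above its bar in every ΔCdk8 library, in both libraries of wild-type number 1 and in the induced library of number 2.

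The transducers Smad1 and Smad5, which carry the signal from receptor to nucleus, differed between genotypes by less than the spread of replicates. Smad1 (ENSMUSG00000031681, chr8:79338395-79399518) ranged from 7.28 to 10.1 TPM in wild-type and from 7.81 to 11 TPM in ΔCdk8 libraries, with log2 differences of 0.01±0.18 uninduced and -0.02±0.21 induced. Smad5 (ENSMUSG00000021540, chr13:56703010-56742377) ranged from 16.0 to 20.3 TPM and from 14.2 to 20.1 TPM, with differences of -0.15±0.14 and -0.30±0.17. The groups overlapped for both genes in both conditions. The edgeR adjusted p was 0.979 and 0.955 for Smad1 and 0.52 and 0.284 for Smad5, which does not show that the levels are equal. For Smad1, 7.84% to 24.3% of the reads lay in introns.

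The inhibitory SMADs were both at higher TPM in every ΔCdk8 library than in every wild-type one. Smad6 (ENSMUSG00000036867, minus strand, chr9:63953076-64022059), which competes for activated Smad1, was at 1.73, 1.15 and 0.948 TPM in uninduced wild-type numbers 1, 2 and 3 and at 6.77, 3.06 and 3.69 TPM in clones 8, 11 and 15. After induction it was at 0.735, 0.496 and 0.381 TPM in wild-type ESCs and at 5.81, 3.93 and 3.0 TPM in the clones. The lowest ΔCdk8 library was thus above the highest wild-type library, and the 3 induced wild-type libraries were the lowest of the 12. The log2 difference was 1.5±0.40 uninduced, with edgeR adjusted p 0.154, and 2.68±0.39 induced, with adjusted p 0.0534. With all 12 libraries in 1 fit the induced difference of 2.69 passed the threshold with adjusted p 0.00458, but that fit treats the uninduced and induced libraries of 1 number or clone as independent, which they were not. DESeq2 gave adjusted p 0.00895 uninduced and 1.88e-08 induced. Smad6 was counted from 19 to 531 reads per library, of which 14.01% to 32.1% lay in introns.

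Smad7 (ENSMUSG00000025880, plus strand, chr18:75367529-75395935), which blocks type I receptors, was at 17.4, 14.5 and 14.9 TPM in uninduced wild-type numbers 1, 2 and 3 and at 31.3, 34.3 and 27.3 TPM in clones 8, 11 and 15. In induced conditions the values were 17.5, 12.5 and 10.6 TPM against 28.8, 45.7 and 28.3 TPM. No ΔCdk8 library overlapped a wild-type one, number 1 included. The log2 difference was 0.89±0.19 uninduced and 1.22±0.30 induced, with edgeR adjusted p 0.13 and 0.0753. DESeq2 gave adjusted p 0.00421 uninduced, where the fold of 1.82 was under the minimum, and 0.00497 induced, where the fold of 2.30 passed it.

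**Figure D3:**
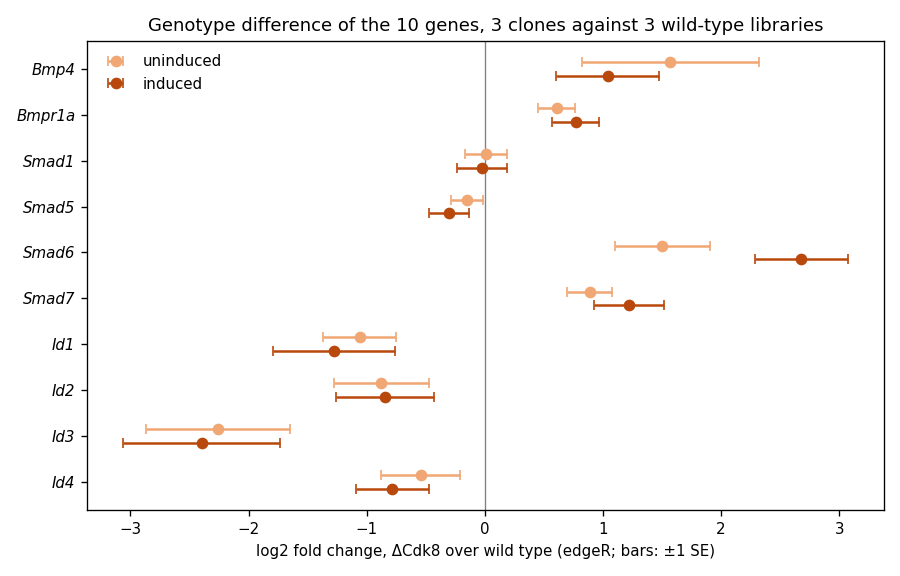
Log2 fold change of ΔCdk8 over wild-type ESCs from edgeR for each gene, with bars of 1 SE either way, in uninduced (light) and induced (dark) conditions. Bmp4, Bmpr1a, Smad6 and Smad7 lie above 0 and all 4 Id genes below 0 in both conditions, Smad1 and Smad5 lie near 0, and none of the 10 passed the edgeR threshold in these fits.

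The Id genes, read as the output of the pathway, had lower mean TPM in ΔCdk8 than in wild-type ESCs. Against wild-type number 1 alone the ΔCdk8 mean was 1.12 times for Id1, 1.19 times for Id2, 1.05 times for Id3 and 0.795 times for Id4. Id3 (ENSMUSG00000007872, plus strand, chr4:136143497-136145755) was at 43.0, 274 and 289 TPM in uninduced wild-type numbers 1, 2 and 3 and at 45.0, 44.8 and 52.3 TPM in clones 8, 11 and 15. After induction it was at 37.8, 252 and 242 TPM in wild-type ESCs and at 36.7, 47.2 and 29.5 TPM in the clones. The ΔCdk8 mean was 0.161 times that of wild-type numbers 2 and 3 and 1.05 times that of number 1. Wild-type number 1 lay just below the ΔCdk8 range in uninduced and within it in induced conditions, far from numbers 2 and 3. The log2 difference was -2.26±0.61 uninduced and -2.40±0.66 induced, with edgeR adjusted p 0.154 and 0.0901. Without uninduced wild-type number 1 it was -2.74±0.14 and passed the threshold with adjusted p 0.00454, whereas without induced number 1 it was -2.88±0.30 with adjusted p 0.0161.

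Id1 (ENSMUSG00000042745, plus strand, chr2:152736251-152737410), the most abundant of the 4 in 11 of 12 libraries by TPM, followed the same split. It was at 151, 367 and 309 TPM in uninduced wild-type numbers 1, 2 and 3 against 155, 116 and 178 TPM in clones 8, 11 and 15, and at 67.8, 347 and 191 TPM against 97.1, 85.7 and 103 TPM after induction. Wild-type numbers 2 and 3 were above every ΔCdk8 library in both conditions, and number 1 was below clones 8 and 15 uninduced and below all 3 clones induced. The log2 difference was -1.06±0.31 uninduced and -1.28±0.51 induced, with edgeR adjusted p 0.165 and 0.171. Leaving out number 1 gave -1.36±0.17 and -1.70±0.26, with adjusted p 0.0337 and 0.0343, whereas leaving out induced wild-type number 2 gave -0.63±0.43 with edgeR adjusted p 0.481.

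Id2 (ENSMUSG00000020644, minus strand, chr12:25093799-25097140) differed more among the clones. It was at 52.0, 129 and 117 TPM in uninduced wild-type numbers 1, 2 and 3 and at 59.2, 33.8 and 93.1 TPM in clones 8, 11 and 15. The groups overlapped through wild-type number 1, and the log2 difference of -0.88±0.40 had an edgeR adjusted p of 0.262, or -1.19±0.32 with adjusted p 0.0897 without number 1. After induction it was at 27.0, 60.9 and 58.2 TPM in wild-type ESCs and at 32.6, 16.2 and 46.6 TPM in the clones, again overlapping through number 1. The induced difference was -0.84±0.41 with edgeR adjusted p 0.235, or -1.15±0.34 with adjusted p 0.0876 without number 1. Id4 (ENSMUSG00000021379, plus strand, chr13:48261228-48266026) was the lowest of the family, at 1.31 to 3.19 TPM over the 12 libraries and 76 to 292 reads. Its induced levels of 2.75, 3.09 and 2.97 TPM in wild-type numbers 1, 2 and 3 lay above the 2.05, 1.80 and 1.89 TPM of clones 8, 11 and 15, number 1 included. That difference was -0.78±0.31 with edgeR adjusted p 0.166, and the uninduced one -0.54±0.33 with adjusted p 0.365.

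The share of each gene in the Id family also differed between libraries. Summed over the 4 genes, Id transcripts came to 772 and 718 TPM in uninduced wild-type numbers 2 and 3, to 248.5 TPM in number 1 and to 262, 195.5 and 326 TPM in clones 8, 11 and 15. Id3 made up 35.5% and 40.3% of the sum in numbers 2 and 3, but 17.3% in number 1 and 17.2%, 22.9% and 16.0% in the clones. Id1 made up 47.6% and 43.1% of the sum in numbers 2 and 3, 60.9% in number 1 and 54.7% to 59.3% in the clones. In induced wild-type numbers 1, 2 and 3 Id3 made up 27.9%, 38.1% and 49.0% of sums of 135, 663 and 494 TPM, and in clones 8, 11 and 15 it made up 21.8%, 31.3% and 16.3% of 168, 151 and 181 TPM. The Id3 share exceeded that of Id1 in induced wild-type number 3 alone.

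**Figure D4:**
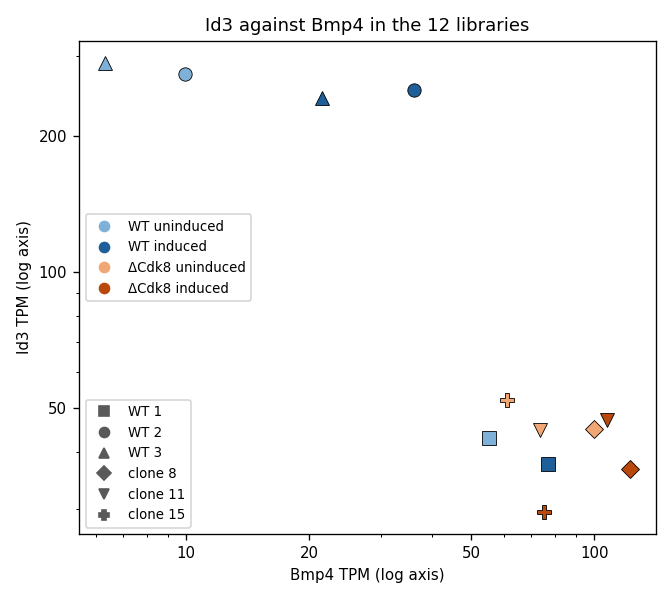
Id3 TPM against Bmp4 TPM in the 12 libraries, both on log axes, with colour giving the group and symbol the wild-type number or clone. The 4 libraries of wild-type numbers 2 and 3 lie at the upper left, and both libraries of wild-type number 1 (squares) lie at the lower right among the 6 ΔCdk8 libraries.

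In the plot of Id3 against Bmp4 the libraries form 2 clusters. The 4 libraries of wild-type numbers 2 and 3 had 242 to 289 TPM of Id3 and 6.33 to 36.2 TPM of Bmp4, and the other 8 had 29.5 to 52.3 TPM of Id3 and 55.2 to 122 TPM of Bmp4. No correlation over all 12 is given for the pair, since it would measure the distance between these clusters. The genes with the most similar pattern were sought by the Pearson correlation of log2(TPM + 1) over the 12 libraries, which come from 3 wild-type numbers and 3 clones and are not independent. For Id3 and Bmp4 these correlations include the same distance between the 2 clusters, and all of them are descriptions only. Id1 was also lower in each induced library than in its uninduced partner, which can enter its correlations. Among 12131 genes with a mean of at least 1 TPM, the genes most like Id3 were Sufu (0.98), Fam168b (0.98), Cc2d1b (0.97), Auts2 (0.97) and Zic2 (0.96). Zic2 had a mean of 13.9 TPM in wild-type number 1, 56.7 TPM in numbers 2 and 3 and 9.22 TPM in the clones. Those most like Bmp4 were Cdyl2 (0.97), Ankrd35 (0.96), Cd37 (0.96), Mindy1 (0.96) and Apod (0.96), and those most like Id1 were Tuba1a (0.93), Ppfia1 (0.92), Rassf1 (0.92), Nxt1 (0.92) and Foxk1 (0.91).

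Xist induction was compared within each genotype, and here the wild-type numbers and the clones pair the libraries. Doxycycline was given to the induced cells only, so an effect of Xist cannot be told apart from an effect of doxycycline itself. TPM differed in the same direction in all 6 pairs for 4 of the 10 genes. Id1, Id2 and Bmpr1a were lower in each induced library than in its uninduced partner, as were 14% of 15137 genes, and Bmp4 was higher, as were 9.93%. The Bmpr1a pair of clone 15 differed by less than 1% (82.7 and 82.6 TPM).

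Id2 gave the most uniform ratio. Induced over uninduced TPM was 0.519, 0.472 and 0.499 in wild-type numbers 1, 2 and 3 and 0.55, 0.48 and 0.501 in clones 8, 11 and 15. All 6 ratios lay near 0.5, in libraries whose Id2 levels before induction ran from 33.8 to 129 TPM. With the wild-type number or clone as a block in edgeR, the log2 change of Id2 was -0.99±0.07 in wild-type and -0.95±0.09 in ΔCdk8 ESCs, with adjusted p 0.00113 and 2.89e-07. Both folds, 1.98 and 1.93 lower, were under the 2-fold minimum, so the gene was not called. Without the block, adjusted p was 0.256 and 1. In wild-type ESCs Id2 passed the threshold when both libraries of number 1 were left out (-1.02±0.08, edgeR adjusted p 0.00143) and with the block in DESeq2 (-1.01, adjusted p 1.23e-18).

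Id1 ratios were 0.448, 0.945 and 0.617 in wild-type numbers 1, 2 and 3 and 0.626, 0.742 and 0.578 in clones 8, 11 and 15. They were below 1 throughout but spread more in wild-type ESCs. The blocked log2 change was -0.61±0.21 in wild-type ESCs with edgeR adjusted p 0.0869, and -0.62±0.09 in ΔCdk8 ESCs with adjusted p 5.53e-05. Id3 ratios were 0.877, 0.923 and 0.836 in wild-type and 0.816, 1.05 and 0.565 in ΔCdk8 ESCs, with blocked adjusted p 0.156 and 0.139. Id4 ratios ran from 0.788 to 1.39 on both sides of 1.

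Bmp4 ratios were 1.39, 3.64 and 3.39 in wild-type numbers 1, 2 and 3 and 1.22, 1.46 and 1.23 in clones 8, 11 and 15. The ratios of wild-type numbers 2 and 3 were above all others, and their uninduced levels were the lowest of the 12 libraries. The blocked log2 change was 1.37±0.30 in wild-type ESCs with edgeR adjusted p 0.026, and 0.40±0.08 in ΔCdk8 ESCs with adjusted p 0.0021. The wild-type change passed the threshold with the block in DESeq2 (1.38, adjusted p 1.71e-06). The interaction of genotype and induction, that is the difference between these changes, was -0.93±0.32 with the block and adjusted p 0.117. With both libraries of wild-type number 1 left out it passed the threshold with the block, at -1.44±0.13 and edgeR adjusted p 1.38e-05, but not without it, at -1.44±0.51 and adjusted p 0.773. That exclusion was made after the data were seen, so these p-values are descriptions only.

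Smad6 had the largest interaction of the 10 genes when all 12 libraries were used, and Bmp4 when wild-type number 1 was left out. The Smad6 TPM ratios were 0.424, 0.431 and 0.402 in wild-type numbers 1, 2 and 3, close together although number 1 stood apart in other genes. In clones 8, 11 and 15 they were 0.859, 1.28 and 0.812. The 3 wild-type ratios lay below all 3 of the clones. The blocked log2 change was -1.15±0.28 in wild-type ESCs with edgeR adjusted p 0.0367 and 0.03±0.15 in ΔCdk8 ESCs with adjusted p 0.932. The interaction was 1.22±0.29 with adjusted p 0.0387 with the block and 1.19±0.51 with adjusted p 1 without it. Without wild-type number 1 it was 1.13±0.33 with the block and edgeR adjusted p 0.0299. At adjusted p under 0.05 with the block, 6.01% of 15137 genes showed an interaction, and Smad6 was the 1 member among them.

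Smad7, Smad1 and Smad5 had ratios from 0.715 to 1.33, 0.851 to 1.24 and 0.9 to 1.27 and were not called in either genotype. Over all genes, edgeR called 162 of 14006 (1.16%) after induction in wild-type ESCs without the block and 553 (3.95%) with it, and 0 of 14832 (0%) and 208 (1.4%) in ΔCdk8 ESCs. None of the 10 genes was among them. At adjusted p under 0.05 with the block and no fold minimum stood 3 of the 10 in wild-type ESCs (Id2, Bmp4 and Smad6) beside 23% of all genes, and 3 in ΔCdk8 ESCs (Id1, Id2 and Bmp4) beside 11.8%.

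**Figure D5:**
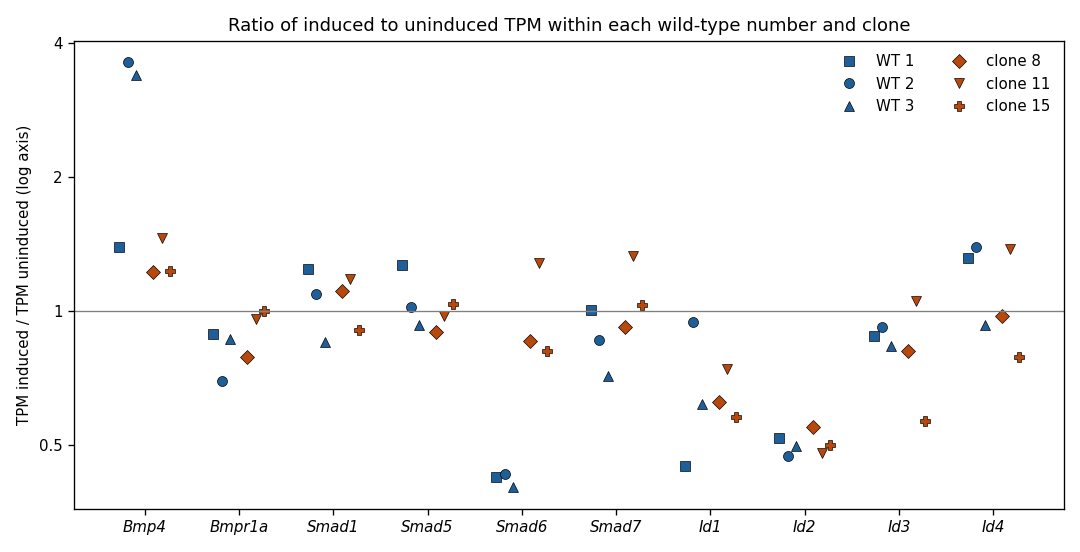
Ratio of induced to uninduced TPM on a log axis for each of the 10 genes, with blue symbols for the 3 wild-type numbers and orange symbols for the 3 clones. All 6 Id2 ratios lie between 0.472 and 0.55, the Smad6 ratios of the wild-type numbers lie below those of the clones, and the Bmp4 ratios of wild-type numbers 2 and 3 lie above the rest.

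Other genes of the pathway were counted in lists by role, and none passed the genotype threshold by edgeR, so the counts below use an unadjusted p under 0.05. The share of all genes at that level was 20.4% uninduced and 25.9% induced. Of 14 BMP ligand genes 7 were tested in uninduced conditions, with 1 higher and 1 lower and a median log2 difference of 0.88, against 0.03 for all genes. In induced conditions 2 of the 7 were higher (Bmp4 and Bmp7) and 1 lower (Gdf3), with a median of 0.98 against 0.03. Among the 7, Bmp6 (0.218 to 0.885 TPM), Bmp8a (0.0472 to 1.00 TPM) and Gdf5 (0.0735 to 0.827 TPM) were low in all libraries. Bmp4 lies on chromosome 14, so these medians do not show a general rise of BMP ligands. Bmp7 was at 0.614, 0.369 and 1.16 TPM in wild-type numbers 1, 2 and 3 against 3.30, 1.24 and 3.31 TPM in clones 8, 11 and 15, a difference of 1.65±0.52 with edgeR adjusted p 0.176. The groups did not overlap, and the induced difference was 1.58±0.45 with edgeR adjusted p 0.0964. Gdf3, a ligand of the same family, was at 109 to 207 TPM in wild-type and 78.5 to 136 TPM in ΔCdk8 ESCs, with -0.79±0.33 and adjusted p 0.235. The ligands not tested for low counts were Bmp2, Bmp5, Bmp10, Bmp15, Gdf2, Gdf6 and Gdf7.

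Of 11 receptor and co-receptor genes, all tested, 2 were higher in uninduced and 3 were higher and 1 lower in induced conditions, with medians of 0.11 and 0.25. The genes beside Bmpr1a were Acvrl1 uninduced, and Acvr1 and Bmpr2 (higher) and Eng (lower) induced. Acvrl1, a type I receptor, differed by 1.34±0.54 in uninduced ESCs with edgeR adjusted p 0.231. Bmpr2, the type II partner of Bmpr1a, differed by 1.10±0.33 in induced ESCs with adjusted p 0.106. Eng, a co-receptor, differed by -1.98±0.68 with edgeR adjusted p 0.13. After induction Bmpr2 was at 3.63, 1.87 and 1.58 TPM in wild-type numbers 1, 2 and 3 and at 5.19, 4.02 and 7.78 TPM in clones 8, 11 and 15. These induced groups did not overlap, and number 1 was again the wild-type library nearest the clones. The uninduced groups overlapped, with number 1 at 5.14 TPM, above clone 11.

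Of the SMAD transducers 6 were tested uninduced and 5 induced, without Smad9, and Smad3, a mediator of the activin and Nodal branch, was the 1 gene at p under 0.05, with 0.57±0.19 uninduced and 1.09±0.36 induced and edgeR adjusted p 0.185 and 0.119. Smad2, of the same branch, differed by -0.23±0.17 and -0.40±0.18. Among 8 intracellular inhibitors Smad6 and Smad7 were the 2 higher genes in both conditions and Ski, a SMAD corepressor, was lower in induced ESCs (-0.61±0.22, edgeR adjusted p 0.136), with medians of -0.05 and 0.04 for the list. Extracellular antagonists were mostly low. Of 13 genes 7 were tested uninduced, none at p under 0.05, and 5 induced, with Nbl1 higher (1.59±0.63, edgeR adjusted p 0.168). In uninduced ESCs Chrd, a secreted BMP binder, differed by -0.71±0.45 and Bambi, a decoy receptor and target of the pathway, by -0.33±0.24. Over both conditions the ΔCdk8 mean of Chrd was 0.564 times that of wild-type numbers 2 and 3 and 1.75 times that of number 1. Nbl1 differed by 0.96±0.75, but by -0.29±0.57 without clone 15, which had 6.26 TPM against 1.46 and 0.55 TPM in clones 8 and 11.

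Of 12 tested BMP target genes, which include the Id genes and inhibitory SMADs, 3 were higher and 3 lower in uninduced ESCs, and the median was -0.16. In induced ESCs 4 were higher and 3 lower, with a median of 0.48. Outside the members these were Msx2 (higher) and Msx1 (lower) uninduced, and Dusp9 and Gata2 (higher) induced. Msx2 differed by 2.09±0.65 uninduced and Gata2 by 1.89±0.73 induced, with edgeR adjusted p 0.175 and 0.16. Msx1, a homeobox target, was at 0.624, 5.49 and 6.86 TPM in wild-type numbers 1, 2 and 3 and at 0.552, 0.51 and 0.833 TPM in clones 8, 11 and 15. As for Id3, wild-type number 1 lay with the clones. The difference was -2.94±0.78 with edgeR adjusted p 0.154, and -3.45±0.38 with adjusted p 0.0325 without number 1. Dusp9, a phosphatase gene on the X chromosome, was the 1 listed gene outside the members past the threshold in an edgeR fit without the block. It fell by 1.92 on the log2 scale (SE 0.22) upon induction in wild-type ESCs with adjusted p 0.00653, from 105 to 131 TPM down to 21.3 to 37.9 TPM, and with the block by 0.84 (SE 0.09) in ΔCdk8 ESCs with adjusted p 2.29e-06, under the 2-fold minimum. Induced over uninduced TPM of Dusp9 was 0.203 to 0.29 in wild-type ESCs and 0.47 to 0.679 in the clones. Over 428 X-linked genes the median ratio to uninduced wild-type ESCs, relative to autosomes, was 0.274 to 0.356 in induced wild-type libraries and 0.584 to 0.65 in induced clones, so the change of Dusp9 cannot be told apart from that of its chromosome. The wild-type call was lost with all 12 libraries in 1 fit (adjusted p 0.0123) and without any 1 of the 6 libraries (edgeR adjusted p 0.0153 to 0.0408). The blocked interaction for Dusp9 was 1.13±0.16 with adjusted p 0.00504. With the block 3 more listed genes passed upon induction in wild-type ESCs. Eng rose by 1.80±0.16, Skil, a SMAD corepressor, fell by 1.02 (SE 0.13) and Msx1 fell by 2.32 (SE 0.26) on the log2 scale, with edgeR adjusted p 0.00205, 0.00559 and 0.00422.

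The 3 E proteins that Id proteins bind were not at p under 0.05 in uninduced conditions, with a median difference of -0.32, and 1 of them, Tcf4, was lower at that level in induced conditions, with a median of -0.69. Tcf3 was at 53.6, 137 and 113 TPM in uninduced wild-type numbers 1, 2 and 3 and at 75.3, 78.4 and 45.2 TPM in clones 8, 11 and 15, a difference of -0.73±0.38 with edgeR adjusted p 0.3. Tcf4 differed by -0.69±0.23 in induced conditions with adjusted p 0.127, and Tcf12 by -0.34±0.20 with adjusted p 0.303.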

How the data were processed

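Stranded polyadenylated RNA-seq reads were mapped by the authors to the Ensembl GRCm38 genome, and 1 table of 25759 genes was deposited for each of the 12 libraries. Read counts were deposited without normalization, and the deposited TPM values are exon reads over exon length, scaled to a common total per library. The RPKM values and the read fractions that the authors deposited were not used in tests. Groups were taken from the labels.

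Gene reads, introns included, were tested in R 4.3.3 with edgeR 4.0.16 (TMM, low genes removed by filterByExpr at a count of 10 and a total of 15, quasi-likelihood F test) for 5 comparisons, with Benjamini-Hochberg adjustment over all genes tested. The SE is the log2 fold change divided by the square root of F. All tests are two-sided, and an exact permutation test of 3 against 3 samples cannot give p below 0.1. DESeq2 1.42.0, other scalings, filters and read classes, the replicate block and leaving out each library were alternatives. Leaving out both libraries of wild-type number 1, and DESeq2 with the block, were added after seeing the data. The edgeR and DESeq2 fits without the block were tested on simulated data, in which libraries were independent. Fits with the block were not tested in this way.

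Deviations from group means correlated at 0.613 to 0.717 between libraries of the same wild-type number and at 0.876 to 0.922 within a clone, against at most 0.44 and 0.0118 between different ones, so numbers and clones were taken to pair the libraries.

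The members and gene lists were chosen with earlier results of these data known. Named genes are the members, Cdk8, the 2 genes of each list with the smallest p in each genotype comparison, list genes past the threshold, and the 5 genes most like Id1, Id3 and Bmp4. Acvr1, Eng, Ski, Skil, Msx2 and Gata2 were named after their values were seen, to complete counts. The windows of Id1 and Smad7 were not used here. Tables and figures were made with Python 3.11.15, pandas 2.3.3 and matplotlib 3.10.9.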

Additional observations from a re-analysis of the deposited data

How the results depend on the processing

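Replicate numbers are shared within a genotype only, so a paired fit was possible for induction and the interaction but not between genotypes. The number of genes called depended on the test. In uninduced ESCs DESeq2 called 386 genes and 2 members, and all 12 libraries in 1 fit called 5 genes. In induced ESCs DESeq2 called 822 genes and 3 members, no filter 4 genes, an adjusted p under 0.05 without a fold minimum 4 genes, and all 12 libraries in 1 fit 145 genes and 1 member. After induction in wild-type ESCs the counts of genes were 662 with DESeq2, 553 with the replicate block, 921 with both (2 members), 566 without wild-type number 1 (1 member), 1154 without it and with the block (2 members) and 639 at adjusted p under 0.05. In ΔCdk8 ESCs they were 36 with DESeq2, 208 with the block and 183 with both. For the interaction they were 33, 151 and 359, and 597 genes with 1 member without wild-type number 1 and with the block. The cause was not tested.

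Leaving out 1 library at a time gave 0 to 2 genes and 0 to 1 members in uninduced ESCs (Id3 without wild-type number 1), 0 to 54 genes in induced ESCs (54 without clone 11) and 0 to 124 in wild-type induction (0 without number 2 or 3), against 162. Direction turned mostly in differences near 0. Log2 values follow. Smad1 uninduced was -0.0118 with DESeq2, -0.0108 with RLE size factors, -0.00686 in the 12-library fit and -0.0785 on exon reads. Wild-type induction of Smad5 was -0.00598 without number 1 and -0.00749 with the block added. Mutant induction of Smad6 was -0.00115 with autosomal TMM and -0.0238 on exon reads. The interaction of Id1 was 0.016 with the block and 0.00751 with DESeq2 and the block, and that of Smad1 was 0.049 on exon reads, 0.0473 without number 1 and 0.0583 with the block added.
With 1 library left out, Smad1 ranged from -0.0814 to 0.0761 and Nbl1 from -0.291 to 1.40 uninduced, and Smad1 from -0.146 to 0.0858 and Acvrl1 from -0.0555 to 0.961 induced. Wild-type induction of Id3 ranged from -0.634 to 0.324. Mutant induction ranged from -0.117 to 0.130 for Id4, -0.315 to 0.0346 for Bmpr1a, -0.114 to 0.0706 for Smad5, -0.198 to 0.385 for Smad6 and -0.171 to 0.341 for Smad7. The interaction ranged from -0.618 to 0.423 for Id1, -0.277 to 0.397 for Id2, -0.593 to 0.331 for Id3, -2.07 to 0.0675 for Bmp4, -0.0539 to 0.313 for Bmpr1a, -0.161 to 0.0762 for Smad1 and -0.0236 to 0.544 for Smad7. Smad6, with 19 to 531 reads, and Id4, with 76 to 292, rest on the fewest reads. The replicate block changed no call of a member in edgeR with all libraries. It added Id2 and Bmp4 to wild-type induction in DESeq2, and Bmp4 to wild-type induction and to the interaction in edgeR without wild-type number 1.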
